A study of Homo sapiens with 28 samples.

Results

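The genes described here encode the replication-dependent histones, measured in the human prostate cancer line LNCaP, which responds to androgen. They were taken as every gene of the count table named H1-1 to H1-6 or with the H2AC, H2BC, H3C or H4C stem and a number, with pseudogenes left out, which gave 66 of 61815 genes. The set held 6 H1, 16 H2A, 17 H2B, 13 H3 and 14 H4 genes. The study asked how CDK8 and CDK19, the kinases of the Mediator complex, act on androgen-regulated expression. All cells were wild type and had been kept in medium with charcoal-stripped serum, which removes androgens, for 72 h before treatment. In a first experiment they received vehicle (0.1% DMSO), the CDK8/19 inhibitor Senexin B at 1 μM per the labels (the study's text gives another dose), the synthetic androgen R1881 at 0.1 nM, or both agents, for 24 h, with 3 libraries per group. In a second experiment they received vehicle, the CDK8/19 inhibitor SNX631 at 500 nM, R1881 at 1 nM, or both, for 72 h, with 4 libraries per group. Inhibitor, R1881 dose, time and experiment all change together between the experiments and cannot be told apart, so the inhibitors are set side by side and not compared.

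Replication-dependent histones package new DNA, and their genes are transcribed mainly in S phase. Their mRNAs normally end without a poly(A) tail, at a conserved stem-loop that is bound by SLBP and processed with the help of the U7 small nuclear ribonucleoprotein. Transcription takes place at the histone locus body, where NPAT, a substrate of cyclin E and CDK2, is the central coactivator. Some of these genes also give polyadenylated transcripts that run past the stem-loop, and such transcripts are known from differentiated and non-dividing cells. Library kits that select poly(A) RNA see mainly the latter form.

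Total counts ranged from 9846595 to 33809419 per library, and 1 vehicle library at 24 h was deeper than all others, of which the highest held 15248512. The cells carried prostate luminal markers at a summed 3791 to 5173 CPM (counts scaled for sequencing depth within each experiment). Prostate basal markers summed to at most 0.441 CPM, with KRT5 at 0 in every library, and leukocyte markers to at most 0.282 CPM, with CD3E at 0. Fibroblast markers summed to 10.2 to 37.8 CPM and endothelial markers to 0.332 to 4.56 CPM. Of the 3 fibroblast markers tested, 2 were called lower with R1881 in each experiment. COL1A1 was called lower in all 4 inhibitor comparisons (log2 fold changes -1.05, -0.85, -0.62 and -0.85), while COL3A1 was called higher with Senexin B alone (1.22) and with SNX631 without and with R1881 (1.49 and 1.27). The part of these markers in the results was not tested. KLK3, which encodes PSA and is the standard androgen target, checked the labels: its mean was 1.44 ± 0.29 CPM in vehicle and 110 ± 4.2 with R1881 at 24 h (SD, n = 3), and 1.44 ± 0.17 and 138 ± 7.6 at 72 h (SD, n = 4).

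Counts of the histone genes were few and uneven. The 66 genes together took 0.0288 to 0.0655% of a library's counts, and 3103 listed genes for other RNAs without a poly(A) tail (small nuclear, nucleolar and Cajal body RNAs and the like) took 0.0156 to 0.0230%. No count was seen for 9 of the 66 genes in any library, 28 stayed under 10 counts in every library, and 25 had a mean of 10 or more. The 5 genes with most counts, H2BC21, H2AC6, H2BC12, H4C8 and H1-2, held 75.9% of the histone counts and the top 10 held 91.8%. Shares of counts are not scaled for transcript length, so they do not rank the genes by molecules. In bulk RNA, fewer cells that transcribe a gene and less RNA per cell cannot be told apart.

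**Figure D1:**
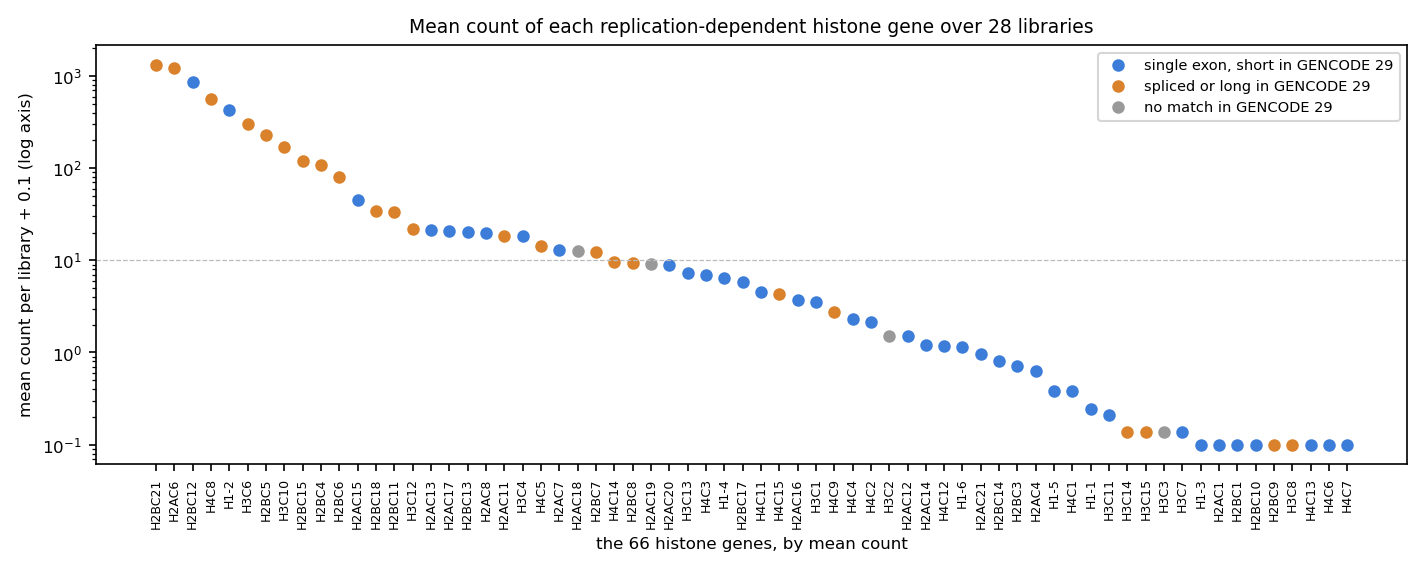
Mean count per library of each of the 66 histone genes over 28 libraries, with 0.1 added and on a log axis, coloured by the form of the annotated transcript; the dashed line marks 10 counts. 25 genes lie above the line, and the points of H2BC21 and H2AC6 lie highest.

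The stem-loop marks the usual end of these mRNAs, and some annotated transcripts go on past it. In GENCODE 29 (GRCh38), 62 of the 66 genes were found. Of these, 39 had only single-exon transcripts of up to 1000 bases, and they took 25.8% of the histone counts. The other 23 had a spliced or a longer transcript, and they took 73.8%. A stem-loop was found in the annotated transcript of 25 genes. It is printed here for the most counted gene of the H2A, H2B, H3 and H4 classes and for genes with large changes, 5′ to 3′, with the stem and loop in capitals and the flanks in lower case.
H2BC21 (chr1:149886183-149886208, minus strand): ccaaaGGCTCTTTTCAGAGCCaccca
H2AC6 (chr6:26124664-26124689, plus strand): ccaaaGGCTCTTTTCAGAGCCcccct
H4C8 (chr6:26285126-26285151, minus strand): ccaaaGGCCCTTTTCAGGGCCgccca
H3C6 (chr6:26225591-26225616, plus strand): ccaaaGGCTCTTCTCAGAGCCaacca
H2BC4 (chr6:26123467-26123492, minus strand): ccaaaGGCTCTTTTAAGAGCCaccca
H2BC18 (chr1:149811880-149811905, minus strand): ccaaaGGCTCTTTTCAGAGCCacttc
H2BC7 (chr6:26199963-26199988, plus strand): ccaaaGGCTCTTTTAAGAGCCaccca
H2AC13 (chr6:27808642-27808667, plus strand): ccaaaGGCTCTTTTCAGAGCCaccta
H2BC21, H2AC6, H2BC18 and H2AC13 carry the same 16 bases of stem and loop, which 13 of the 25 genes had. H2BC4 and H2BC7 share a form found in 4 genes, H4C8 has the form of 4 H4 genes, and H3C6 stands alone. The annotated H2BC21 transcript continues for 1729 bases after the shown sequence, that of H2BC18 for 1479, that of H2AC6 for 1128 and that of H2BC7 for 732. The distance was 116 bases in H2BC4, 39 in H2AC13, 18 in H4C8 and 5 in H3C6. For H4C8 and H3C6 it was measured in transcripts of 397 and 462 bases, and both also have longer annotated transcripts, of up to 2163 and 2679 bases. No stem-loop lay in the annotated models of H1-2 and H2BC12, which are 642 and 381 bases long. The search covered annotated bases only, and a short model may end before the stem-loop. A gene without a match is thus not shown to lack one. The deposited counts do not separate the processed and the longer form of a gene.

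The promoters are shown because several H2B genes moved together. These are the RefSeq windows (GRCh38.p14) from 250 bases before to 50 after the start of H2BC21 and H2BC4, which fell most among well-counted genes under inhibitor, and of H2BC12, which moved less. Capitals mark matches, on either strand, to ATTTGCAT (the octamer bound by OCT1, which activates H2B genes), to the TATA motif TATAAA, to the motif CCAAT bound by NF-Y and to AGAACA, an element of androgen receptor sites. No motif contains another, and AGAACA was in none of these 3 windows.
H2BC21 (chr1:149886633-149886932, minus strand): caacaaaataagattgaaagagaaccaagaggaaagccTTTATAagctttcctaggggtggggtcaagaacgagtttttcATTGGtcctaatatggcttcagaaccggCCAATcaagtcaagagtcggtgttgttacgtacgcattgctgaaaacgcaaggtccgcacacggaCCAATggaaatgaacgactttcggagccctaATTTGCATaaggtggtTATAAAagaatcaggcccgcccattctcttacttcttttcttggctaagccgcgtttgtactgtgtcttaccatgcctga
H2BC4 (chr6:26123877-26124176, minus strand): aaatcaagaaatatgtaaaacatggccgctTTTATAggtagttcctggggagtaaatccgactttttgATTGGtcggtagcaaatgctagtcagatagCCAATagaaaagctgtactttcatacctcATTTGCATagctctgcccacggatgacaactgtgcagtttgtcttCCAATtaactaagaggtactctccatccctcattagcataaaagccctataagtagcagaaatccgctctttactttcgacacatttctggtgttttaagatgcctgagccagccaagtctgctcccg
H2BC12 (chr6:27146809-27147108, minus strand): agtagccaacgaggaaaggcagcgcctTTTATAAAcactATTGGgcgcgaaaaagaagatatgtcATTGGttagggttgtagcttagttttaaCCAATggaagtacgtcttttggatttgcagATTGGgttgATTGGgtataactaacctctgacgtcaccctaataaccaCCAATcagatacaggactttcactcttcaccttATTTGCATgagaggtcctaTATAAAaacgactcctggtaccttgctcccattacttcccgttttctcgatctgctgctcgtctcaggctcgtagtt
All of these windows hold the octamer, TATAAA and CCAAT on 1 strand or the other. In the H2BC4 window TATAAA lies on the opposite strand only, at a site that is also in the window of its divergent neighbour H2AC6. Of the 61 members with a window, the octamer lay in 14 of 17 H2B (82.4%) and 11 of 15 H2A windows (73.3%), in 1 of 11 H3 and in no H1 or H4 window, and in 2.19% of all 27305 windows. TATAAA lay in 68.9% of the members' windows and 14.0% of all, CCAAT in 85.2% and 39.7%, and AGAACA in 29.5% and 17.5%. Divergent H2A and H2B neighbours share part of a window, so these counts are not independent. A match is only a description of the letters. The windows of H2BC12 and H2BC21 hold the same kinds of motif but not the same number of CCAAT matches. A link between motifs and changes was not tested.

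Reads shared between copies limit some members. Of the members' values above 0, 18.6% had a fractional part, against 16.9% over all genes, since a read on several genes or places was split, and 28 members had at least 1 such value. The span of 15 members overlaps another annotated gene, for 9 of them another member. The most affected of the genes named below are H3C4, with fractions in 89.3% of its libraries, and H2BC18, with 75%. H2BC21 had fractions in 57.1% of its libraries, H2BC11 in 39.3%, and H4C8 and H2AC6 in 7.14%. H1-2, H2AC13, H3C10, H2BC8 and H4C3 had none.

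Both CDK8/19 inhibitors lowered the summed level of these genes, without and with R1881. The summed level of all 66 was 613, 633 and 623 CPM in the vehicle libraries at 24 h and 409, 404 and 404 CPM with Senexin B. At 72 h it was 510, 481, 486 and 501 CPM in vehicle and 344, 350, 335 and 358 CPM with SNX631. Every inhibitor library lay below every vehicle library. The ratio of means was 0.651 for Senexin B and 0.702 for SNX631, and in the presence of R1881 it was 0.657 and 0.679. These sums are given as descriptions with no test.

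The sums of all 5 classes were lower with inhibitor alone. With Senexin B the H4 sum went from 74.4 ± 1.4 to 43.7 ± 1.8 CPM (SD, n = 3) and the H2B sum from 304 ± 1.8 to 186 ± 2.1. The H1 sum went from 43.2 ± 2.7 to 25.3 ± 3.0 CPM, the H2A sum from 146 ± 5.9 to 110 ± 3.2, and the H3 sum from 55.1 ± 4.0 to 40.5 ± 1.4. With SNX631 at 72 h the ratios of means were 0.687 for H4, 0.695 for H2B, 0.726 for H1, 0.702 for H2A and 0.730 for H3, again with no overlap of the groups. The H2A, H2B, H3 and H4 sums were also lower with inhibitor in R1881-treated cells, with no overlap in either experiment. H1 differed there: with R1881 at 24 h its groups overlapped (27.9 to 31.8 CPM without and 24.4 to 30.2 CPM with Senexin B). Single genes weigh heavily in these sums. H1-2 held nearly all of the H1 counts and H4C8 nearly all of the H4 counts. H2AC6 and H3C6 held most of the H2A and H3 counts, and H2BC21 and H2BC12 together most of the H2B counts. A class sum is thus not separate from these genes, which are described below, and does not show that a class fell throughout. By gene, the test described next called 4 of 11 H2B, 1 of 8 H2A, 0 of 4 H3, 1 of 3 H4 and the 1 tested H1 gene lower with Senexin B (1.77% of all genes). With SNX631 it called 4 of 11 H2B, 0 of 10 H2A, 1 of 5 H3, 0 of 4 H4 and not the 1 tested H1 gene (1.94% of all genes). With Senexin B in R1881-treated cells 0 of 8 H2A genes were called, and 3 of the 8 had log2 fold changes above 0.

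**Figure D2:**
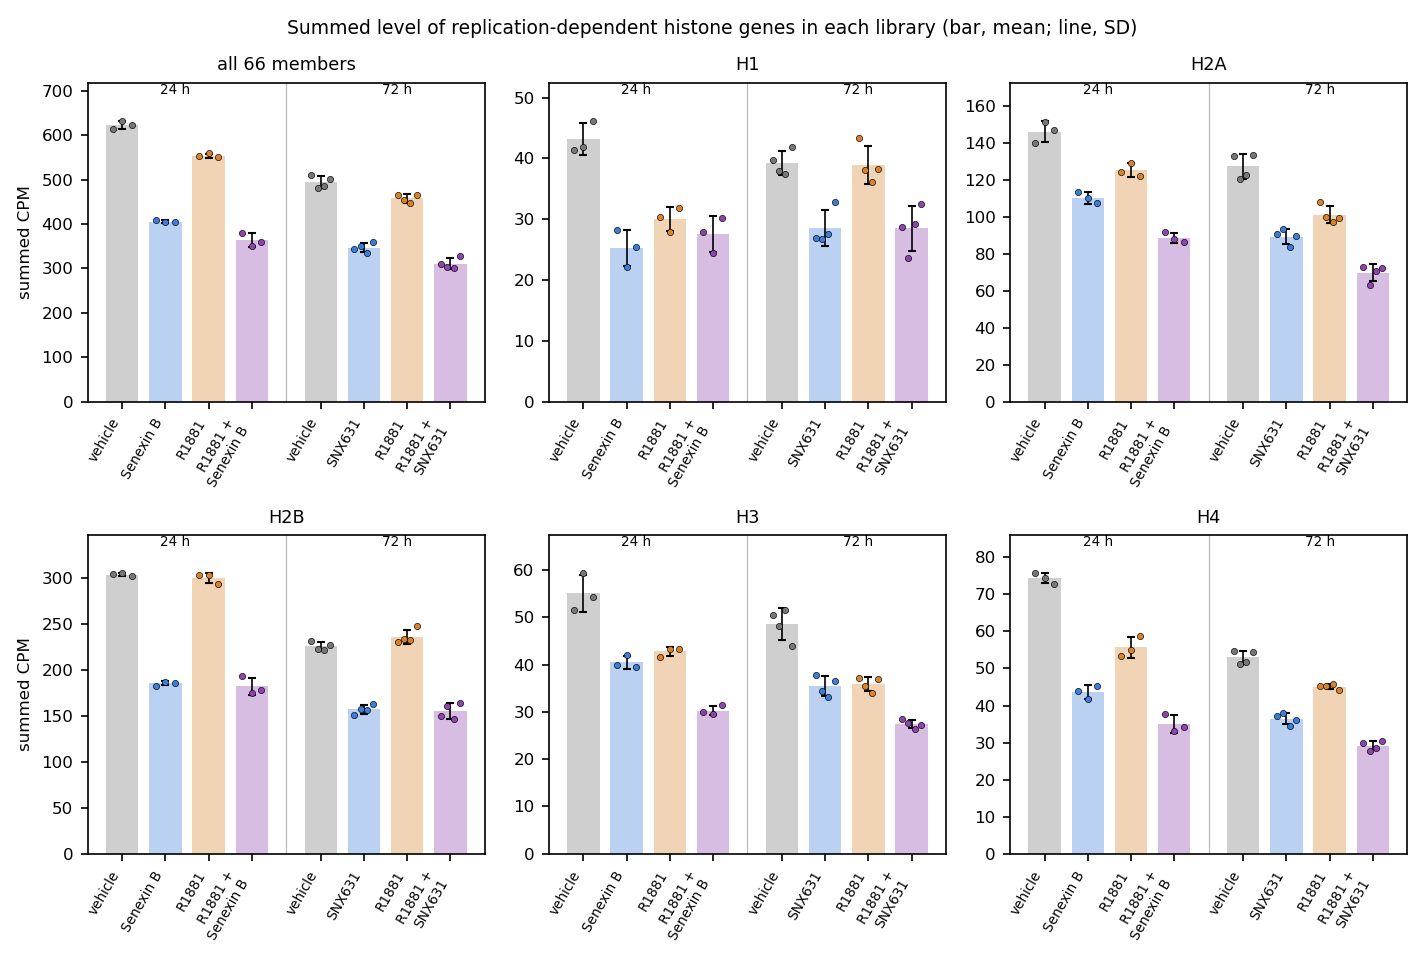
Summed CPM of all 66 histone genes and of each class in each library (points), with the group mean (bar) and SD (line), at 24 h on the left and 72 h on the right of each panel. Inhibitor means lie below their controls in every panel, and the libraries overlap only for H1 with R1881 at 24 h.

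Gene by gene, 27 members could be tested at 24 h and 31 at 72 h, and 35 had too few counts in both. The quasi-likelihood test of edgeR was used, and a gene was called at an adjusted p under 0.01 and a change of over 1.5-fold (0.58 on the log2 scale). Senexin B alone lowered 7 of 27 (25.9%), where 1.77% of the 15948 genes tested were called lower. With R1881 present it lowered 8 of 27 (29.6%), against 1.50% of all. SNX631 alone lowered 5 of 31 (16.1%), against 1.94% of 16074 genes, and with R1881 present 6 of 31 (19.4%), against 2.24%. No member was called higher in these 4 comparisons by edgeR, where 1.61 to 2.82% of all genes were, or by DESeq2. At an unadjusted p under 0.05, 1 and 1 were higher with Senexin B, without and with R1881, and 0 and 1 with SNX631, against 14 and 13 and 15 and 17 lower. Shares of all genes at that limit are not given here. At an adjusted p under 0.05 with no fold limit, Senexin B lowered 14 and 13 of 27 members, and 2733 and 2400 of 15948 genes. SNX631 lowered 14 and 13 of 31 members, and 2803 and 3305 of 16074 genes. At that adjusted limit 1, 1, 0 and 1 members were higher. The median log2 fold change of the tested members was -0.43 and -0.35 for Senexin B and -0.30 and -0.50 for SNX631, without and with R1881, while the median of all genes lay between -0.01 and 0.01. In all, 14 members were called lower in at least 1 of the 4, and 3 (H2BC21, H2BC4 and H2BC18) in all 4. The matching shares of all genes are not given here, so these 2 counts have no background beside them. The comparisons without and with R1881 within an experiment have no library in common, but each shares control libraries with the R1881 comparisons given further on.

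H2BC21, an H2B gene on chromosome 1, showed the change most evenly. Its level was 166, 159 and 159 CPM in vehicle and 77.6, 76.9 and 75.5 CPM with Senexin B. With R1881 it was 167, 161 and 160 CPM, and with R1881 plus Senexin B 86.6, 73.4 and 78.5 CPM. Inhibitor libraries held about the same level with or without androgen, and all lay well below the others. Its log2 fold change was -1.07 (SE 0.04, adjusted p = 5.24e-19) without and -1.03 (SE 0.04, adjusted p = 7.93e-18) with R1881. At 72 h the vehicle libraries had 111, 104, 104 and 109 CPM and the SNX631 libraries 57.7, 58.3, 56.7 and 58.7 CPM. The log2 fold change was -0.88 (SE 0.04, adjusted p = 3.80e-20), and with R1881 -0.95 (SE 0.04, adjusted p = 1.84e-21).

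Other H2B genes fell as well. H2BC4 had 14.0, 14.96 and 14.8 CPM in vehicle and 6.13, 7.80 and 7.85 CPM with Senexin B, a log2 fold change of -1.02 (SE 0.11, adjusted p = 6.83e-09). At 72 h it had 8.01, 6.26, 10.6 and 7.26 CPM in vehicle and 5.42, 4.61, 3.84 and 4.09 CPM with SNX631 (log2 fold change -0.83, SE 0.14, adjusted p = 1.37e-05). Neither pair of groups overlapped. H2BC11 fell with Senexin B alone (log2 fold change -1.19) and with SNX631 alone (-0.89). The latter call was lost without SNX631 replicate 1 or 3 or vehicle replicate 1, at adjusted p values up to 0.0227. H2BC5 and H2BC6 were called with Senexin B in R1881-treated cells (log2 fold changes -0.66 and -0.98), though the interaction did not pass the test (adjusted p = 0.421 and 0.114), and H2BC5 came under the fold limit without R1881 replicate 2 (-0.56). H2BC7 had 1.29, 1.06 and 1.99 CPM with R1881 and 0.423, 0.287 and 0.312 CPM with R1881 plus Senexin B, the latter from 3 to 5 counts per library (log2 fold change -2.06, SE 0.41, adjusted p = 0.000209).

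H2BC12 and H2BC15 show that not every H2B gene moved alike. H2BC12 went from 73.8, 76.8 and 77.6 CPM in vehicle to 60.1, 63.2 and 62.0 with Senexin B, without overlap, but the log2 fold change of -0.31 (SE 0.05, adjusted p = 2.64e-06) lay under the fold limit. In the other 3 inhibitor comparisons its log2 fold changes were -0.32, -0.18 and -0.28. H2BC15 had log2 fold changes of 0.12 and 0.34 for Senexin B and 0.18 and 0.32 for SNX631, without and with R1881, with adjusted p values from 0.0102 to 0.433. Both were chosen for mention after their values were seen.

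H2BC4 lies beside H2AC6 on the opposite strand, and the 300-base promoter windows of the pair share 255 bases. H2AC6 had 122, 135 and 131 CPM in vehicle and 99.6, 96.5 and 94.4 CPM with Senexin B. The groups did not overlap, and the log2 fold change was -0.42 (SE 0.04, adjusted p = 5.85e-10). At 72 h the vehicle libraries had 114, 107, 107 and 116 CPM and the SNX631 libraries 77.8, 79.8, 70.4 and 77.3 CPM (log2 fold change -0.54, SE 0.04, adjusted p = 7.13e-13). With R1881 the values were -0.56 and -0.58. All 4 were under the fold limit, so H2AC6 was not called. The value with R1881 passed the limit without R1881 plus Senexin B replicate 1 at 24 h (-0.59), and at 72 h when any of 6 of the 16 libraries was left out (lowest -0.61). The difference between H2BC4 and H2AC6 was not tested.

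Among H4, H1 and H3 genes, H4C8 and H1-2 stood out by their counts. H4C8 had 71.0, 69.2 and 68.7 CPM in vehicle and 41.1, 38.4 and 42.5 CPM with Senexin B. Its log2 fold change was -0.77 (SE 0.05, adjusted p = 1.01e-13), and with R1881 present -0.69 (SE 0.06, adjusted p = 7.30e-11). SNX631 gave -0.56 (SE 0.05, adjusted p = 2.47e-12), under the fold limit, and with R1881 -0.67 (SE 0.05, adjusted p = 1.53e-13). The groups did not overlap in any of the 4. H3C6 was called with Senexin B in R1881-treated cells (log2 fold change -0.70, SE 0.09) and lay between -0.43 and -0.58 in the others. H3C10 was called with SNX631 alone (-0.59, SE 0.09), but not without SNX631 replicate 3 (-0.51) or vehicle replicate 3 (-0.53). With R1881 present, SNX631 changed H3C10 by -0.04.

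H1-2, a linker histone gene with a single annotated exon, was at 24 h the 1 member of 27 whose inhibitor effect was called different between androgen states by the interaction test. It had 40.3, 40.6 and 45.4 CPM in vehicle, 27.8, 21.8 and 25.2 with Senexin B, 29.5, 27.4 and 30.9 with R1881, and 27.8, 24.1 and 30.1 with both. Vehicle stood above the other 3 groups, which overlapped with each other. Senexin B changed it by -0.77 (log2, SE 0.07, adjusted p = 6.44e-10) without R1881 and by -0.09 (SE 0.09, adjusted p = 0.455) with it. The interaction was 0.68 (SE 0.11, adjusted p = 0.000147), where 0.577% of all genes were called. Without Senexin B replicate 2 it was 0.58 and under the fold limit, at an adjusted p of 0.00152. In the 72 h experiment, the interaction was called for 1.19% of all genes, and that of H1-2 was 0.04 (SE 0.10, adjusted p = 0.876). No member was called there, by DESeq2 either. H3C10 was the 1 member, higher, at an unadjusted p under 0.05 in edgeR. Its interaction of 0.55 (log2) passed an adjusted p under 0.01 and missed only the fold limit. SNX631 changed H1-2 by -0.47 and -0.43 (log2, SE 0.07 each) without and with R1881, both under the fold limit.

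**Figure D3:**
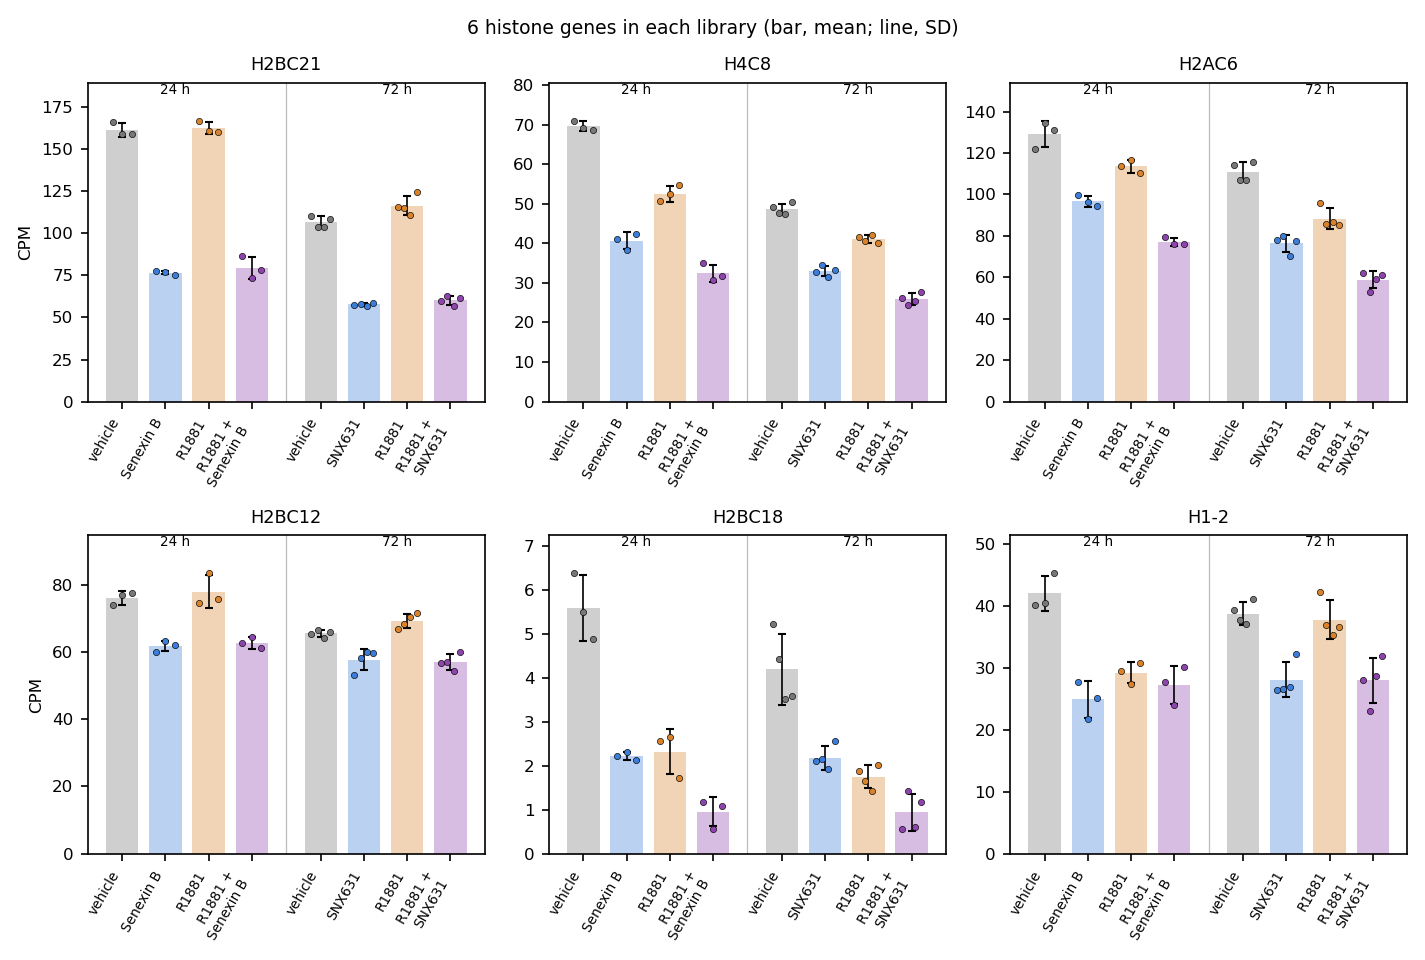
CPM of 6 histone genes in each library (points), with the group mean (bar) and SD (line), at 24 h on the left and 72 h on the right of each panel. H2BC21 was at 75.5 to 77.6 CPM with Senexin B and 159 to 166 in vehicle, while H2BC12 moved less and H2BC18 was lower with each agent.

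H2BC18, an H2B gene on chromosome 1, was called lower in all 8 pairwise comparisons. It had 6.38, 5.50 and 4.89 CPM in vehicle, 2.21, 2.32 and 2.13 with Senexin B, 2.57, 2.65 and 1.73 with R1881, and 1.19, 0.573 and 1.09 with both. At 72 h it had 5.22, 4.43, 3.52 and 3.59 CPM in vehicle, 2.10, 2.15, 1.92 and 2.55 with SNX631, 1.88, 1.66, 1.43 and 2.02 with R1881, and 0.559, 1.43, 0.619 and 1.17 with both. Each agent alone lowered it, and the libraries with both were lowest at 24 h. Log2 fold changes were -1.27 for Senexin B and -0.94 for SNX631 alone (SE 0.18 each), and -1.22 and -1.26 for R1881 alone at 24 and 72 h (SE 0.18 and 0.20). SNX631 with R1881 gave -0.87 (SE 0.27, adjusted p = 0.00741), a call lost when any of 5 of the 16 libraries was left out (R1881 replicate 1, 2 or 4, or R1881 plus SNX631 replicate 1 or 3), at adjusted p values up to 0.0405. Senexin B with R1881 was -1.25 (adjusted p = 0.00102), and 0.0103 without R1881 plus Senexin B replicate 2. With counts thinned to the smallest total, H2BC18 was no longer called in 3 of the 8 (either inhibitor with R1881, and R1881 with Senexin B present), and the call for SNX631 with R1881 was also lost by DESeq2. The H2BC18 span overlaps FCGR1A on the opposite strand by 9830 bases and AC243772.2 on the same strand by 7362, and the use of strand in counting is not given in the sources used here.

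**Figure D4:**
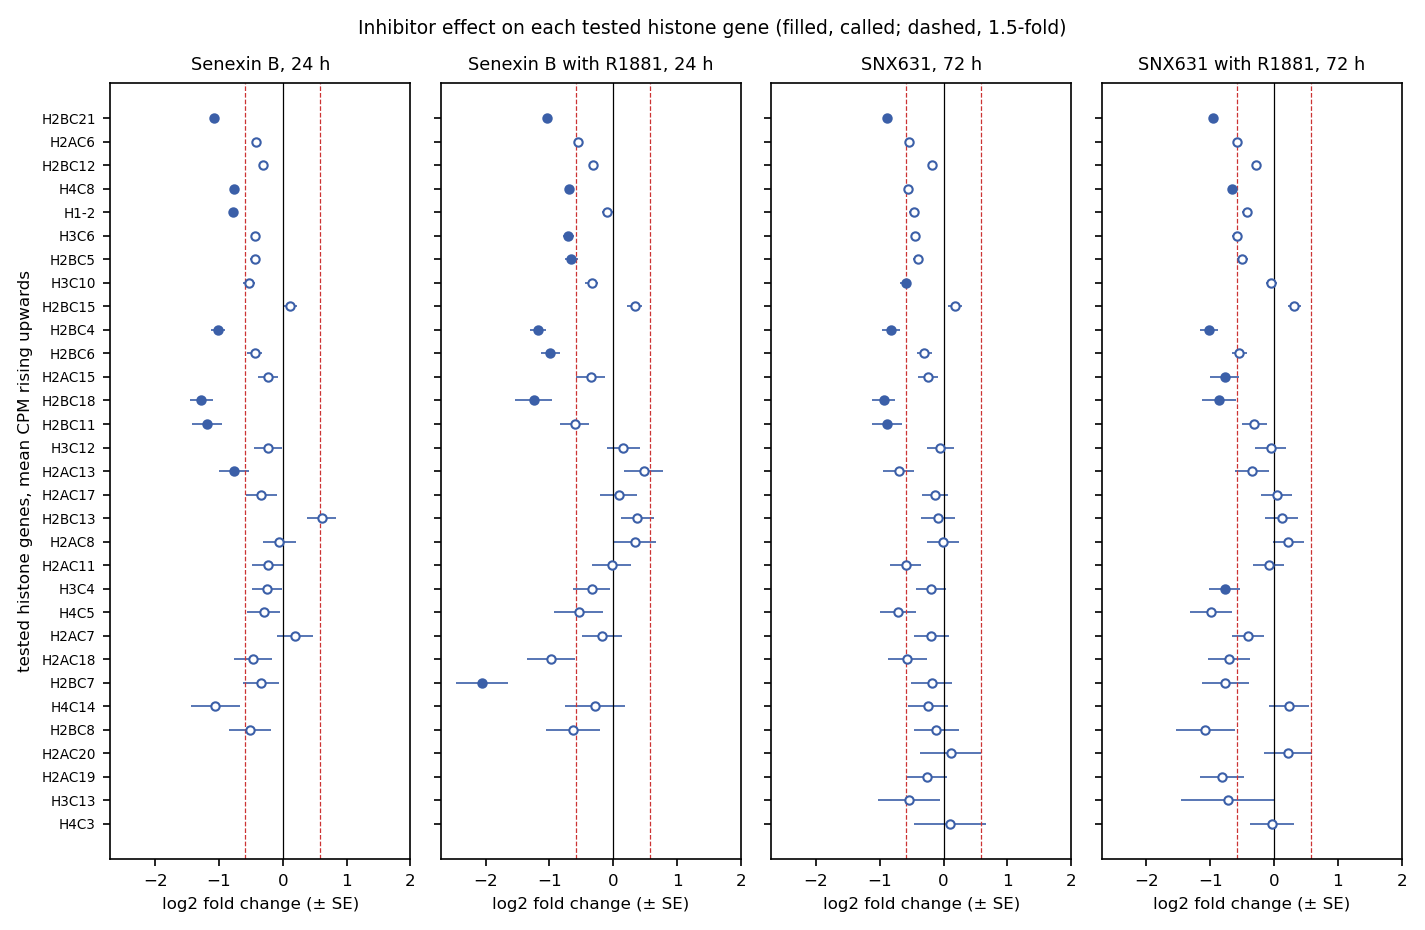
Log2 fold change (± SE) of every tested histone gene in the 4 inhibitor comparisons, genes ordered by mean CPM with the highest at the top; filled points were called and dashed lines mark 1.5-fold. Points of H2BC21, H2BC4 and H2BC18 are filled in all 4 panels, and no filled point lies above 0.

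A few low-count calls did not hold when 1 library was left out. H2AC13 was called with Senexin B alone (log2 fold change -0.77, adjusted p = 0.00950), and this was lost when any of 9 of the 12 libraries was left out, at adjusted p values up to 0.0770. H3C4 was called with SNX631 in R1881-treated cells (-0.77, adjusted p = 0.00897), lost for 11 of 16 libraries, at adjusted p values up to 0.0436. H2AC15 in the same comparison (-0.78, adjusted p = 0.00457) was lost without R1881 replicate 2 or 4 or R1881 plus SNX631 replicate 3 or 4, at values up to 0.0374. Leaving out 1 library moved the number of members called by SNX631 alone from 5 to 3 (without SNX631 replicate 3). For the other inhibitor comparisons the number stayed within 6 to 7, 7 to 9 and 4 to 8.

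Sums were also taken by the annotated form of the transcript. The spliced or long genes summed to 482 ± 8.7 CPM in vehicle and 300 ± 1.3 with Senexin B (SD, n = 3), and to 370 ± 10 and 244 ± 9.1 at 72 h with SNX631 (SD, n = 4). The short single-exon genes summed to 139 ± 3.5 and 104 ± 2.1 CPM at 24 h and to 123 ± 3.7 and 101 ± 5.1 at 72 h. Senexin B lowered 5 of 17 tested spliced or long genes and 2 of 9 short ones (1.77% of all genes), and with R1881 8 of 17 and 0 of 9 (1.50%). SNX631 lowered 5 of 17 and 0 of 12 (1.94%), and with R1881 4 of 17 and 2 of 12 (2.24%). The difference between the forms was not tested, and a short annotated model may leave out part of the transcript. RNAs without a poly(A) tail other than histone mRNA took 0.0163 to 0.0188% of counts in vehicle and 0.0188 to 0.0206% with Senexin B, and 0.0173 to 0.0184% and 0.0187 to 0.0198% at 72 h, so they did not fall beside the histone counts, and their part in the result was not tested.

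R1881 left the histone genes near or below their vehicle level. Of 27 tested members at 24 h, 3 fell (11.1%, against 9.19% of all genes called lower) and 0 rose, where 9.81% of all genes were called higher. By DESeq2 it was also 3 and 0, where 1255 of 15948 genes were called lower and 1508 higher. At an unadjusted p under 0.05, 9 were lower and 0 higher. Shares of all genes at the unadjusted limit are not given here, for any R1881 comparison. At an adjusted p under 0.05 with no fold limit, edgeR called 8 of 27 members and 4500 of 15948 genes lower. It called 0 members and 4807 genes higher. At 72 h 2 fell (6.45%, against 10.1%) and 1 rose (3.23%, against 9.70%). With Senexin B present 5 of 27 fell (18.5%, against 8.90%) and 0 rose (against 9.97%). DESeq2 called 0 higher there (1511 of 15948 genes), and 2 were higher at an unadjusted p under 0.05. With SNX631 present 4 of 31 fell (12.9%, against 12.0%) and 2 rose (6.45%, against 10.1%). DESeq2 called 2 lower and 1 higher at 72 h (1477 and 1519 of 16074 genes). With SNX631 present it called 3 lower and 1 higher (1737 and 1587 genes), where H4C3 and H2BC8 were lost. The shares called lower were thus near the background in 3 of the 4. Scaling to library totals in place of TMM moved the median of all genes from between -0.02 and -0.01 to between -0.12 and -0.09 in these comparisons, and 5 members were then called at 24 h and 5 at 72 h.

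H2BC21, which held most counts, had log2 fold changes with R1881 of 0.01 (SE 0.04, adjusted p = 0.768) at 24 h and 0.13 (SE 0.04, adjusted p = 0.00216) at 72 h, the latter under the fold limit. With totals alone as scaling the 24 h value was -0.06. H2BC12 had 0.03 and 0.08. The summed H2B level had a ratio of means of 0.987 at 24 h and 1.04 at 72 h with R1881, and its groups overlapped in both. On library totals, its log2 ratio at 72 h turned from 0.06 to -0.04. The H2A, H3 and H4 sums were lower with R1881 in both experiments without overlap, at ratios of means from 0.740 to 0.857. The H1 sum was lower at 24 h (ratio 0.695), and at 72 h its groups overlapped (0.992).

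Besides H2BC18, H2AC15 was called lower with R1881 in both experiments, at few counts. H2AC15 had 4.22, 4.73 and 5.20 CPM in vehicle and 3.31, 2.56 and 2.68 with R1881 at 24 h (log2 fold change -0.78, SE 0.18, adjusted p = 0.000368). At 72 h it had 5.05, 3.74, 4.46 and 5.93 CPM in vehicle and 2.72, 3.32, 1.43 and 3.16 with R1881 (-0.84, SE 0.18, adjusted p = 9.92e-05). The groups did not overlap in either. Without vehicle replicate 3 the 24 h call was lost at an adjusted p of 0.0114. H2AC15 lies within H2BC15 on the opposite strand, with 393 bases in common. H2AC13 fell at 24 h (3.29, 2.26 and 2.42 CPM in vehicle, 1.10, 1.50 and 0.951 with R1881, log2 fold change -1.10, adjusted p = 0.000420), while at 72 h it was -0.41 (adjusted p = 0.135).

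H3C6 fell with R1881 in cells that also received inhibitor. Its level at 24 h was 24.87, 24.97 and 22.86 CPM with Senexin B and 13.6, 12.9 and 14.9 with both agents, a log2 fold change of -0.81 (SE 0.08, adjusted p = 8.43e-10). At 72 h it was 22.4, 21.6, 21.4 and 21.9 CPM with SNX631 and 14.5, 14.5, 13.8 and 13.8 with both (-0.63, SE 0.07, adjusted p = 1.01e-09). Without inhibitor, R1881 gave -0.54 (SE 0.07) and -0.49 (SE 0.07), under the fold limit but with no overlap of the groups. The 24 h value passed the limit without vehicle replicate 3 (-0.60). The interaction of H3C6 was -0.27 (adjusted p = 0.186) at 24 h and -0.14 (adjusted p = 0.409) at 72 h, so the difference between these values did not pass the test. H2BC6 and H2BC7 were also called lower with R1881 in the presence of Senexin B (-0.67 and -1.61). The first was lost without Senexin B replicate 3 (-0.57) and the second without R1881 plus Senexin B replicate 3 or Senexin B replicate 2 (adjusted p up to 0.0162).

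H4C3 and H2BC11 were the members called higher with R1881. H4C3, a short single-exon H4 gene, had 0.348, 0.0763, 0.257 and 0.468 CPM in vehicle at 72 h, from 1 to 6 counts, and 0.628, 0.912, 0.446 and 1.40 CPM with R1881, from 5 to 16 counts (log2 fold change 1.56, SE 0.45, adjusted p = 0.00328). The groups overlapped. With SNX631 present the change was 1.42 (adjusted p = 0.00417), without overlap. Both calls hung on few counts: the first was lost without R1881 replicate 4 or vehicle replicate 2, at up to 0.0392, and the second for 4 of 16 libraries, at up to 0.0242. H2BC11 rose with R1881 in the presence of SNX631 (0.83, adjusted p = 0.00185), but not without SNX631 replicate 3 (0.60, adjusted p = 0.0199). H2BC8 fell in the same comparison (-1.32, adjusted p = 0.00758, groups overlapping), a call lost for 4 of 16 libraries at up to 0.0798. The mean levels of H4C3 and H2BC8 in each group were low, so both lay outside the rule for named genes and were singled out after their values were seen. The androgen effect was not called different between the experiments for any of 32 members by edgeR or DESeq2 (1.88% of 16672 genes were by edgeR). At an unadjusted p under 0.05, 4 were higher and 2 lower, and the share of all genes at that limit is not given here.

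The histone genes can be set beside genes of the cell cycle and of histone supply. A list of 46 S phase and proliferation genes was called higher with R1881 for all 46 at 24 h (median log2 fold change 2.13) and for 45 at 72 h (1.41). RRM2, a subunit of the enzyme that makes deoxynucleotides, had log2 fold changes of 3.98 and 2.18. CDC6 (3.90 and 1.90) and MCM10 (3.77 and 1.87), which license and start origins, and CDC45 (3.73 and 2.15), part of the replicative helicase, rose with it. The tested histone genes had medians of -0.18 and -0.13 in these comparisons. The summed level of the list was 749 ± 17 CPM in vehicle and 2884 ± 91 with R1881 at 24 h (SD, n = 3), while that of the 66 histone genes was 623 ± 9.8 and 554 ± 4.8.

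With inhibitor, S phase genes were called higher while histone genes were called lower. Senexin B alone raised 11 of the 46 S phase genes (23.9% when 2.02% of all genes were called higher) and lowered 0 by edgeR, with a median log2 fold change of 0.40. SNX631 alone raised 39 (2.82% of all genes) and lowered 0, with a median of 0.82. With R1881 present 1 rose with Senexin B (median 0.21, 1.61% of all genes called higher) and 8 with SNX631 (0.51, 1.89%), and 0 fell. CDK1, the mitotic kinase, rose in all 4 (0.94, 0.71, 1.36 and 1.02), and DTL, which targets licensing factors for destruction in S phase, rose in 3 (1.00, 1.33 and 0.68), with 0.35 for Senexin B with R1881. At 72 h the S phase sum was 1316 ± 24 CPM in vehicle and 2354 ± 74 with SNX631 (SD, n = 4), and the histone sum 495 ± 14 and 347 ± 10.

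**Figure D5:**
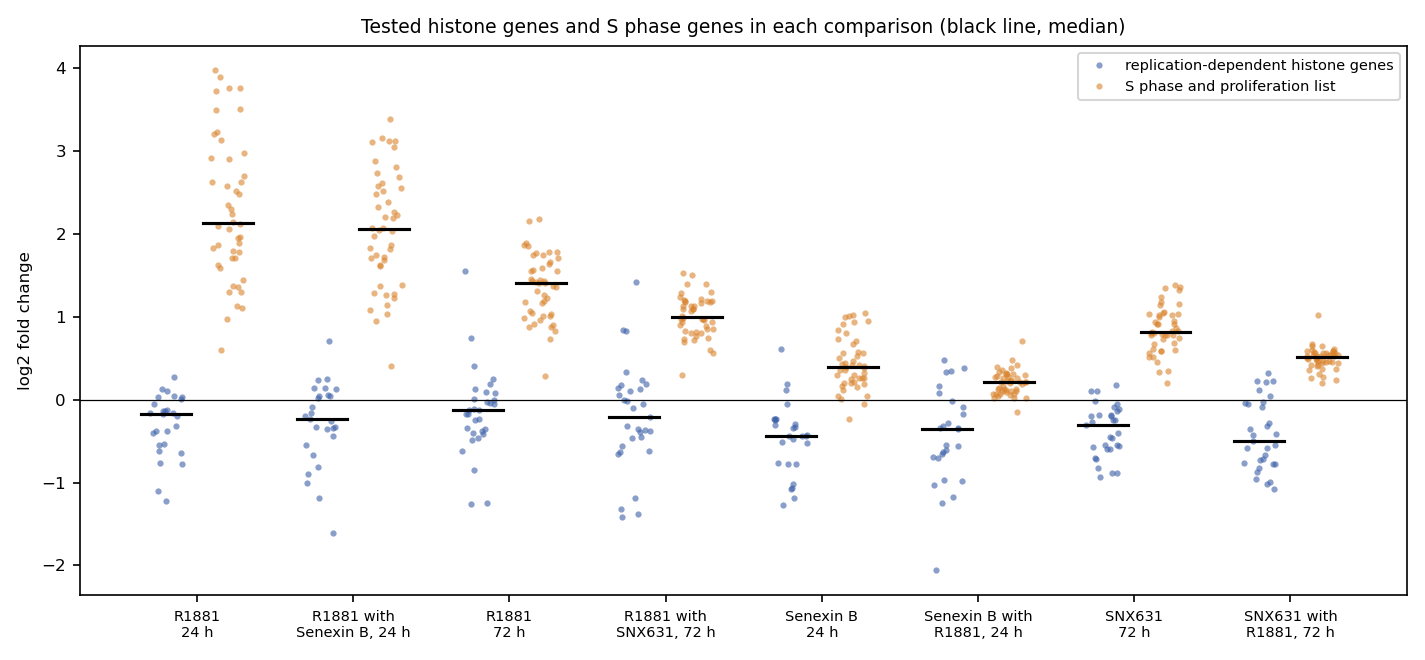
Log2 fold change of each tested histone gene (blue) and each gene of the S phase and proliferation list (orange) in the 8 pairwise comparisons, with medians as black lines. The medians lie on opposite sides of 0 in every comparison, at -0.18 and 2.13 for R1881 at 24 h and at -0.30 and 0.82 for SNX631 alone.

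Factors that process histone mRNA moved little. Of 26 genes of 3′ processing and decay, 1 was called higher with R1881 at 24 h and 2 at 72 h (9.81% and 9.70% of all genes), and 0 were called by edgeR in any inhibitor comparison. SLBP, the stem-loop binding protein, rose from 48.4 ± 1.1 to 94.1 ± 6.5 CPM with R1881 at 24 h (log2 fold change 0.96, adjusted p = 1.02e-17) and from 55.2 ± 2.6 to 83.5 ± 1.2 at 72 h (0.60). Its inhibitor values were 0.25 and 0.21 for Senexin B and 0.25 and 0.36 for SNX631, under the fold limit. TUT7, a terminal uridylyltransferase that tags histone mRNA for decay, rose with R1881 at 72 h (0.85), and ERI1, the exonuclease that trims the stem-loop end, had 0.53 and 0.33. ZNF473, a part of the U7-dependent machinery, had inhibitor values of 0.41, 0.31, 0.41 and 0.18.

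At the histone locus body, NPAT itself was not called: its log2 fold changes were 0.21 and 0.05 with R1881 and at most 0.19 with inhibitor. Of the 15 tested genes of this list, 7 rose with R1881 at 24 h and 5 at 72 h (9.81% and 9.70% of all genes), and 0 fell. CCNA2 (2.63 and 1.71), CDC25A (2.32 and 1.33), CDK2 (1.95 and 1.31) and CCNE2 (log2 fold change 1.60 at 24 h and 0.74 at 72 h), which carry or activate the cyclin-dependent kinase activity of S phase entry, led. CCNA2, CDK2, CCNE1 and CCNE2 are also in the S phase list above. With SNX631 alone 2 rose (2.82% of all genes), CCNA2 (1.04) and CDC25A (0.74), and with Senexin B alone 1 (2.02%), CDC25A (0.68).

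Histone variants classed as replication-independent were listed as well. Of 14 tested, 4 rose with R1881 in each experiment (9.81% and 9.70% of all genes), 0 fell at 24 h and 1 at 72 h (9.19% and 10.1%). Those that rose were CENPA, the centromeric H3 (1.28 and 1.32), H2AX, the DNA damage H2A (1.27 and 1.18), H2AZ1 (0.94 and 0.74) and the linker histone H1-10 (0.71 and 0.68). H2AZ1 also rose with inhibitor in all 4 comparisons (0.69, 0.61, 0.75 and 0.75). Of 28 tested histone chaperones and assembly factors, 11 rose with R1881 in each experiment (9.81% and 9.70% of all genes) and 1 fell at 24 h, led among those that rose by ASF1B (3.42 and 1.82) and HJURP (2.93 and 1.81). SNX631 alone raised 7, among them ASF1B (1.11), MCM2 (0.91) and CHAF1B (0.64), and Senexin B alone 4 (2.82% and 2.02% of all genes). No chaperone was called lower with inhibitor by edgeR. These lists share the libraries and some genes, such as MCM2, which is also in the S phase list, so they are not separate results. Nothing was tested between them and the histone genes.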

How the data were processed

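Total RNA of 28 LNCaP libraries in 8 groups was sequenced from strand-marking libraries. According to the submitters' processing notes, the tools were cutadapt 2.8, STAR 2.7.2b and featureCounts of Subread 2.0.3, with GRCh38.p13. The authors deposited estimated counts per gene, not normalized, in which reads on several genes or places were split, so values need not be whole. Annotation release, use of strand in counting and selection of poly(A) RNA are not given in the sources used here. Counts were rounded to whole numbers, and 2 added entries that are not genes (0 counts) were left out. Total counts were 9846595 to 33809419.

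The 4 groups of an experiment shared 1 fit (edgeR 4.0.16 in R 4.3.3, filterByExpr at 10 counts per library and 15 in total, TMM, quasi-likelihood test, Benjamini-Hochberg adjustment over all tested genes). Difference between the experiments used a fit of all libraries. DESeq2 1.42.0, other scalings and filters, a replicate block, thinning and leaving out each library were the alternatives, and thinning was chosen after seeing the data. The test was checked on simulated data. No pair of replicates looked like repeat deposits of 1 library (chi-square test of 36 pairs, largest p = 4.06e-59). The study reports at least 3 biological replicates per condition, but the labels do not say whether replicates were separate cultures. The p-values thus measure the spread between these samples, which may be technical. The common coefficient of variation between replicates, as estimated by edgeR, was 2.72% at 24 h and 2.38% at 72 h.

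CPM use TMM library sizes. Members and gene lists were chosen with earlier results of these data known. Named members were those called in a pairwise comparison at 1 CPM or more in the higher group and the highest of each class. From each list SLBP, NPAT and the genes with the largest changes were named, and KLK3 as a check. Transcript forms and stem-loops came from GENCODE 29, where 62 of 66 members were found, and promoters from RefSeq.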

Additional observations from a re-analysis of the deposited data

Results flagged for a closer look

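In 80 groups of 4 libraries tested at 72 h, 3 held a library far from its group, and chance gives about 1 in 20 groups. H1-2 was at 32.4 CPM in SNX631 replicate 4, against 26.5 to 27.0 in the other 3 libraries, and the summed H1 level was 32.9 CPM there, against 26.8 to 27.5. The H1 sum is mostly H1-2, so these are not separate. H2AC6 was at 95.7 CPM in R1881 replicate 1 at 72 h, against 85.1 to 86.6 in the others.

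The effect of Senexin B on H1-2 differed between cells without and with R1881 by an interaction of 0.68 (log2, edgeR adjusted p = 0.000147), with vehicle as the group that stood above the others.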

How the results depend on the processing

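Size factors of DESeq2 changed no call of a named member. A filter of 1 CPM changed none among the 71 of 73 results it could give, but H4C3 was not tested then, which left 2 members called with R1881 at 72 h and 5 with SNX631 present. The DESeq2 test lost 5 of 73 (H2AC13 with Senexin B, H4C3 and H2BC8 with R1881 in the presence of SNX631, H2BC18 and H3C4 with SNX631 in R1881-treated cells), and thinning lost 8 of 71. With library totals alone 5 members were called with R1881 at 24 h and 5 at 72 h (3 and 3 with TMM). Of all genes, 3167 of 15948 and 3420 of 16074 were called then. H2BC21 then turned to -0.063 with R1881 at 24 h, -0.020 with Senexin B present and -0.051 with SNX631 present. At an adjusted p under 0.05 with no fold limit, 8 and 11 members were called with R1881 at 24 h, without and with Senexin B. With Senexin B 15 and 14 were called, with R1881 at 72 h 9 and 10, and with SNX631 14 and 14. There was 1 for the interaction at 72 h and 2 for the difference between experiments. Of 15948 genes at 24 h, 9307 and 9157 were called with R1881 and 5717 and 5257 with Senexin B. Of 16074 at 72 h, 9984 and 10562 were called with R1881, 5864 and 6873 with SNX631 and 2034 for the interaction. Of 27 and 31 tested members, the share called was below that of all genes in each R1881 comparison. It was above that of all genes in the inhibitor comparisons, least so for SNX631 in R1881-treated cells. Thinned to the smallest total, 3 members were called with R1881 plus Senexin B against Senexin B. H1-2 with R1881 in the presence of SNX631 moved from -0.01 to 0.023 with no filter and to 0.0075 with all 28 libraries in 1 fit.

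Leaving out 1 library gave 3 to 4 called members with R1881 at 24 h, 4 to 5 with Senexin B present, 6 to 7 and 7 to 9 for Senexin B, 0 to 1 for the interaction, 2 to 4 and 4 to 6 for R1881 at 72 h, 3 to 5 and 4 to 8 for SNX631, and 0 to 1 for its interaction. The values of H2BC21 with R1881 in the presence of Senexin B ranged from -0.016 to 0.11, and those of H1-2 with R1881 in the presence of SNX631 from -0.076 to 0.077. All 140 class sums kept within the replicate spread.

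Class sums on library totals had log2 ratios with R1881 of -0.30 and -0.43 for H2A, -0.10 and -0.040 for H2B, -0.44 and -0.54 for H3, -0.49 and -0.33 for H4 at 24 and 72 h, -0.11 for H1 at 72 h, and -0.751 for H2B with Senexin B. Over single-exon genes alone, H2A gave -0.59 with R1881 at 24 h, -0.31 with Senexin B and -0.26 with SNX631. H2B gave 0.032, -0.28 and -0.18, and H4 -0.19, -0.37 and -0.22. H3 gave -0.34 with Senexin B, -0.12 with R1881 at 72 h and -0.25 with SNX631. H4 turned to 0.21 with R1881 at 72 h. The cause was not tested.

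The replicate numbers do not pair the libraries: same-numbered deviations correlated at -0.01 to 0.07 at 24 h and -0.07 to 0.07 at 72 h. With the replicate block, 5 members were called with SNX631 in R1881-treated cells (6 without it), H3C4 being lost, and no other count of called members changed. Few counts limit most members: 35 of 66 could not be tested in either experiment.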

Other observations

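Between H3C6 and H4C8 on chromosome 6, 7 consecutive histone genes (H1-3, H4C6, H4C7, H3C7, H2BC9, H3C8 and H2BC10) held 1 count in all over the 28 libraries, with 6 of the 7 at 0, while the flanking H3C6 and H4C8 held 8351.5 and 15868 counts. Of the other 59 members, 3 were at 0. By a wider measure, 16 of the 66 members, these 7 among them, had at most 1 count in every library. This stretch was singled out after its values were seen.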
